A study of Homo sapiens with 12 samples.

Results

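Sterol synthesis in U2OS cells, a human osteosarcoma line, was followed through 8 genes: the enzyme genes HMGCS1, IDI1, FDFT1, SQLE, SC5D and DHCR7 and the regulator genes INSIG1 and SREBF2. They were chosen by name, with earlier results of these data known, and were taken by gene ID from the 22379 genes of the table. All 8 belonged to the 13811 genes that were tested, those whose untreated libraries averaged 10 or more. A transient transfection had given the cells a Cas9 plasmid carrying a nontargeting guide (NONT) or a guide against NUP93, which encodes a scaffold component of nuclear pores, or EXOSC5, which encodes part of the RNA-degrading exosome. These were puromycin-selected pools and not clones, and the NONT pool was selected and expanded for longer than the knockout pools, so that genotype and time in culture cannot be told apart. Each genotype was given DMSO (called untreated here) or 1 μM triptolide, an inhibitor of TFIIH that blocks transcription initiation by RNA polymerase II, for 8 h, with 2 libraries in each of the 6 groups. All 12 libraries came from poly(A) RNA to which ERCC spike-in RNAs had been added by cell number.

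Cells make cholesterol from acetyl-CoA through mevalonate, isoprenoid units, squalene and lanosterol. The pathway's enzymes are controlled together by SREBP-2, the transcription factor encoded by SREBF2. When membrane sterol is plentiful, INSIG proteins hold the SREBP precursor and its escort SCAP in the endoplasmic reticulum. When sterol is scarce, the precursor moves to the Golgi, is cut, and its free N-terminal part enters the nucleus and binds sterol regulatory elements, usually beside sites for NF-Y and Sp1. INSIG1 and SREBF2 are themselves SREBP targets, so the pathway holds both its own brake and its own accelerator.

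The upstream sequences of both regulator genes are shown beside that of HMGCS1, the enzyme gene at the head of the list. Among these sequences, only that of SREBF2 holds an exact match to the letters searched for the sterol regulatory element. All are RefSeq sequences of the GRCh38.p14 build, 250 bases that end immediately before an annotated start, written 5′ to 3′ on the gene's strand. Capitals mark matches to the sterol regulatory element TCACNCCAC and to the CCAAT box bound by NF-Y, which reads ATTGG where it lies on the opposite strand.
SREBF2 (chr22:41832855-41833104, plus strand): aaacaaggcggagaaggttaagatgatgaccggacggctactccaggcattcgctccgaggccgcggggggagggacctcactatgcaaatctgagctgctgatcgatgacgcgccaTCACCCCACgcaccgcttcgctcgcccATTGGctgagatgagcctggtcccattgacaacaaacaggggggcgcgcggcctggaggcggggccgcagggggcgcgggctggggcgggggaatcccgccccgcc
INSIG1 (chr7:155297628-155297877, plus strand): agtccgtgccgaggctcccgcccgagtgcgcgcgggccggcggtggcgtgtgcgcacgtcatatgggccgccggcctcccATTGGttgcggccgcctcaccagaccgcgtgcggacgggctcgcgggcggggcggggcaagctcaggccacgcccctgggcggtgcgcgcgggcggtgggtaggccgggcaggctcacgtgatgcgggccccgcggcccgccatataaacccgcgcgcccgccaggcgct
HMGCS1 (chr5:43313413-43313662, minus strand): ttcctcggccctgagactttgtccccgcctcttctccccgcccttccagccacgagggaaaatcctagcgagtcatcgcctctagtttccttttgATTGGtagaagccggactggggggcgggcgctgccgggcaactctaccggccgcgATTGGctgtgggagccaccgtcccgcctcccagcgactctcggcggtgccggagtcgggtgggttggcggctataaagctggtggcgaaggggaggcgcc

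In SREBF2 the sterol regulatory element spanned bases −133 to −125 before the start and the opposite-strand CCAAT box spanned −106 to −102. INSIG1 carried 1 CCAAT box, at −170 to −166, and the HMGCS1 sequence shown carried a pair, at −155 to −151 and −100 to −96. A window at another annotated start of HMGCS1 held no CCAAT box. The motifs were searched on both strands in windows of 300 bases, from 250 before to 50 after each start. The search covered 11 windows of 6 genes. FDFT1 and SQLE, both on chromosome 8, were left out of it, so the member counts do not cover them. The sterol regulatory element letters were in 1 of 11 windows, that of SREBF2, against 1.13% of all 35116 windows. CCAAT was in 8 of 11 windows and in at least 1 window of each of the 6 genes, against 34.6% of all windows, and the Sp1 box GGGCGG was in 10 of 11, against 45.0%. The searched motifs did not share bases with each other except where CCAAT boxes on the 2 strands of IDI1, or neighbouring Sp1 boxes, overlapped. A match describes letters only, other forms of the sterol regulatory element were not searched, and windows of 1 gene can overlap.

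In untreated cells the genes fell into 2 ranges of abundance, compared here as the spike-in-normalised value per kilobase of the canonical transcript. DHCR7, the enzyme of the last step to cholesterol in one branch, had a mean of 1401 over the 3 genotypes (genotype means 1154 to 1635), and SQLE, which oxidises squalene, had 1364 (1046 to 1561). HMGCS1, the synthase that makes HMG-CoA, had 1091 (812 to 1285) and SREBF2 had 1053 (919.7 to 1168). Within libraries, DHCR7 and SQLE each exceeded HMGCS1 and SREBF2 in 6 of 6 untreated libraries, while DHCR7 exceeded SQLE in 4 of 6 and HMGCS1 exceeded SREBF2 in 3 of 6, so the order inside each of these pairs was not set. The lower range held SC5D, a late desaturase, at 157 (133 to 184), INSIG1 at 151 (109 to 192), FDFT1, squalene synthase, at 75.5 (18.7 to 104), and IDI1, isopentenyl diphosphate isomerase, at 54.4 (47.8 to 57.9). SC5D exceeded INSIG1 in 4 of 6 libraries and FDFT1 exceeded IDI1 in 4 of 6, so these pairs were not ordered either. The quantification divides reads among transcripts that share sequence, and whether reads of FDFT1 went to a copy under another ID was not tested, so all FDFT1 values below, levels and differences, are uncertain.

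Depth was about 8.58 M to 11.95 M reads per library (M, 1 followed by 6 zeros), estimated from the value of 1 read in each. At that depth the fewest reads behind a value of a sterol gene were about 23.6 for FDFT1, 35.1 for IDI1 and 70.6 for INSIG1, and for the other 5 genes every value rested on at least 264 reads. The library scales were most uneven in NONT: the first untreated library lay 0.51 below the second at the median gene on the log2 scale. The first NONT triptolide library lay 0.25 above the second. All 6 mesenchymal markers (VIM, RUNX2, COL1A1, COL1A2, SPARC and CDH2) had a mean of at least 10, with a summed value of 47616 to 146788 per library, while the blood pair PTPRC and CD74 summed to 0 to 8.42 and the liver pair ALB and APOA1 to 0 to 14.0. The epithelial pair EPCAM and CDH1 also had means of at least 10 and summed to 33.9 to 117. COL1A2 was as low as these, at 4.05 to 42.0 per library where EPCAM was at 16.8 to 47.6. As the check of the labels, NUP93 was 1395 and 1432 in the untreated NUP93-KO libraries where NONT had 1753 and 2489. EXOSC5 was 216 and 148 in the untreated EXOSC5-KO libraries where NONT had 299 and 481. Both lay below NONT in both libraries, and neither difference passed the threshold (limma adjusted p = 0.926 and 0.151). After triptolide EXOSC5 again lay below NONT in both EXOSC5-KO libraries (75.2 and 102 where NONT had 266 and 208), but NUP93 overlapped (801 and 1019 where NONT had 1007 and 899), so the mRNA check did not hold in the treated libraries labelled NUP93-KO.

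Blocking transcription for 8 h lowered the mRNA of all 8 sterol genes in NONT cells, on the spike-in scale, which was set by cell number. SQLE fell furthest, to 3.71% of its untreated mean, INSIG1 fell to 17.8%, and SREBF2 lost least, keeping 55.1%. Each of the 8 falls passed the threshold of a limma adjusted p under 0.05 over all genes, as did the falls of 90.0% of all 13811 genes, so the count of 8 of 8 was near the background. In NUP93-KO 6 of 8 were lower past the threshold (55.1% of all genes) and in EXOSC5-KO 6 of 8 (64.3% of all genes), with FDFT1 and SREBF2 outside the threshold in both. Treated values lay below untreated ones with no overlap for 8 of 8 genes in NONT (94.8% of all genes), 7 of 8 in NUP93-KO (79.1%), FDFT1 being the exception, and 8 of 8 in EXOSC5-KO (88.0%). In bulk RNA a loss of mRNA per cell cannot be told apart from a loss of some cells with more of it, and all changes rest on the spike-in. The median log2 change over all genes was −1.62 in NONT and −0.92 and −1.08 in the NUP93 and EXOSC5 knockouts. Rescaling every library to 1 common total moved it to −0.32, −0.36 and −0.29, with 5270 genes then lower and 2105 higher in NONT in place of 12427 and 7. Scaling by median of ratios moved it to −0.01, −0.03 and −0.01, with 4185 and 3752 such genes in NONT. The NUP93-KO split became 4101 and 3681 in place of 7603 and 19, and the EXOSC5-KO split 3964 and 3612 in place of 8884 and 11. On those scales, in turn, 3 and 2 of the 8 were lower in NONT (HMGCS1, SQLE and INSIG1, then SQLE and INSIG1), against 38.2% and 30.3% of all genes. On each of them 1 was higher, SREBF2, against 15.2% and 27.2% of all genes. By median of ratios NUP93-KO had 2 lower and 2 higher members of the 8 (29.7% and 26.7% of all genes). EXOSC5-KO had 3 lower and 2 higher (28.7% and 26.2% of all genes).

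**Figure D1:**
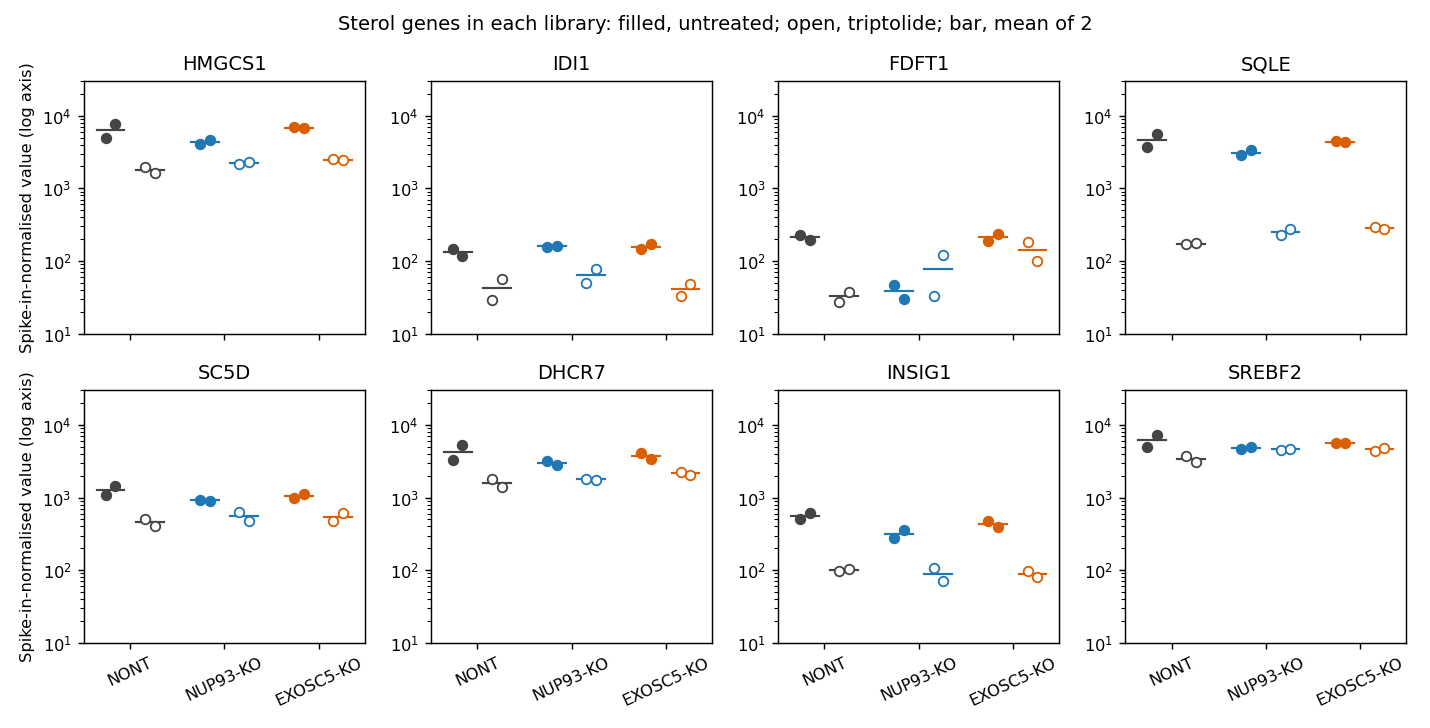
Spike-in-normalised value (log axis) of the 8 sterol genes in each of the 12 libraries, by genotype. Filled points are untreated and open points triptolide-treated libraries, and bars are means of 2. SQLE drops from at least 2876 to at most 293, SREBF2 stays between 3054 and 7291 throughout, and FDFT1 is at 29.5 and 46.8 in untreated NUP93-KO.

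HMGCS1 and IDI1, enzymes of the mevalonate pathway, lost an intermediate share. HMGCS1 was 4887 and 7709.6 in untreated NONT and 1981 and 1648 after triptolide, 4123 and 4559.6 against 2155 and 2278 in NUP93-KO, and 6976 and 6769 against 2530.2 and 2452 in EXOSC5-KO. Treated and untreated libraries did not overlap in any genotype. The log2 fold changes were −1.76 ± 0.20 (SE) in NONT (limma adjusted p = 7.77e-07), −0.97 ± 0.20 in NUP93-KO (0.000692) and −1.46 ± 0.20 in EXOSC5-KO (1.11e-05). IDI1 was 144 and 118 in untreated NONT and 28.7 and 57.1 after the drug, 154 and 163 against 50.1 and 78.6 in NUP93-KO, and 145 and 169.5 against 32.9 and 48.2 in EXOSC5-KO. It too had no overlap, and changed by −1.66, −1.32 and −1.95 (SE 0.38 each), with adjusted p = 0.000663, 0.00683 and 0.000277. In NUP93-KO the IDI1 call was lost without the first triptolide library, at −1.002. Relative to the median gene of each genotype, in the same order, HMGCS1 stood at −0.14, −0.05 and −0.39, and IDI1 at −0.04, −0.40 and −0.88.

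The squalene steps held the deepest loss and the least stable one. SQLE was 3702 and 5543 in untreated NONT and 169 and 174 after triptolide, 2876 and 3321 against 229.98 and 277 in NUP93-KO, and 4448 and 4354 against 293 and 272 in EXOSC5-KO. The highest treated library, at 293, lay far below the lowest untreated one, at 2876. The log2 fold changes were −4.71 ± 0.21, −3.61 ± 0.21 and −3.96 ± 0.21 (limma adjusted p = 3.53e-11, 1.88e-09 and 6.12e-10), which placed SQLE at percentiles 5.65, 7.11 and 5.58 of the changes of all tested genes, where the deepest losses have the lowest percentiles. The drug left 3.71% of the SQLE mRNA of NONT (3.04% to 4.71% over the 4 treated-to-untreated library ratios), 8.18% of that of NUP93-KO (6.93% to 9.62%) and 6.43% of that of EXOSC5-KO (6.13% to 6.73%). SQLE was lower past the threshold on each of the 4 scales tried, the smallest change being −2.71, by median of ratios in NUP93-KO.

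FDFT1 did not follow SQLE. In NONT it was 227 and 196 without drug and 27.6 and 37.9 after it, a change of −2.67 ± 0.49 (SE, limma adjusted p = 9.85e-05). In NUP93-KO it was already 46.8 and 29.5 without drug and was 32.6 and 122 after it, a change of 0.75 ± 0.49 (adjusted p = 0.205) that was 1.69 and past the threshold without the first treated library and −0.18 without the second. In EXOSC5-KO it was 186 and 236 against 184 and 100.3, a change of −0.62 ± 0.49 (adjusted p = 0.264). The untreated and treated NUP93-KO libraries overlapped, and the replicates of treated NUP93-KO differed more than those of any other FDFT1 group.

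**Figure D2:**
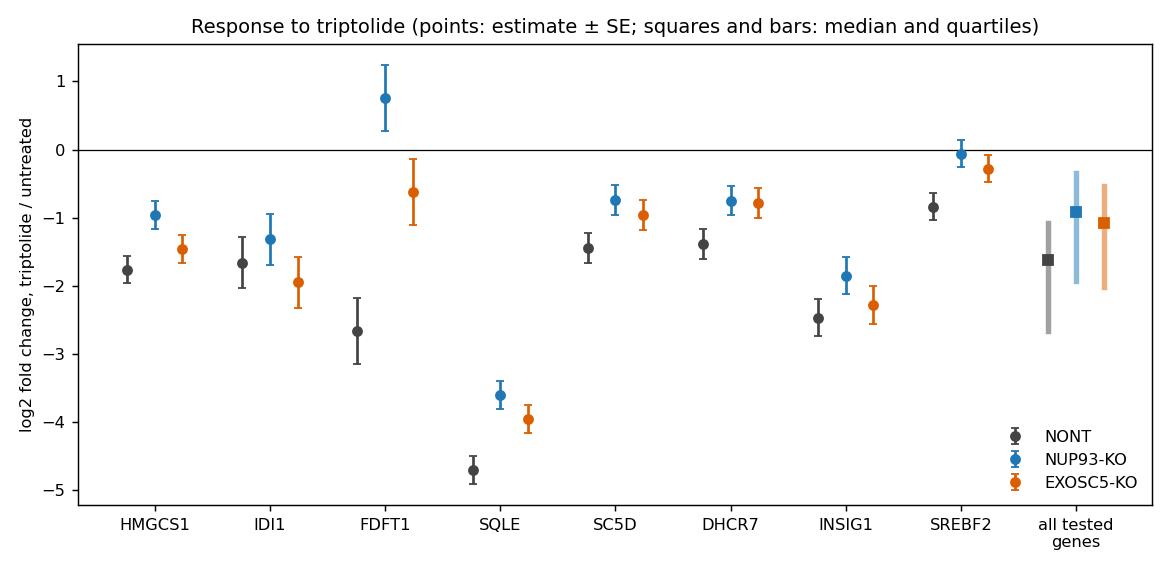
Log2 fold change after triptolide (points, estimate; bars, ± SE) of each sterol gene in the 3 genotypes, with the median (squares) and quartiles (thick bars) of all 13811 tested genes at the right. SQLE lies below the lower quartile and SREBF2 above the upper quartile in every genotype, and SREBF2 would rise if each library were rescaled to the same total or by median of ratios.

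The late enzymes changed by about as much as the typical gene. SC5D was 1072 and 1455 in untreated NONT and 508 and 411 after triptolide, 927 and 901 against 624 and 479 in NUP93-KO, and 993 and 1116 against 469 and 622 in EXOSC5-KO. The log2 changes of −1.45, −0.74 and −0.96 (SE 0.22 each; limma adjusted p = 1.7e-05, 0.00948 and 0.00129) stood at percentiles 56.6, 57.0 and 54.1. DHCR7 was 3295 and 5294 against 1794 and 1414 in NONT, 3213 and 2852 against 1821 and 1772 in NUP93-KO, and 4043 and 3389 against 2254 and 2036 in EXOSC5-KO. It changed by −1.39, −0.75 and −0.79 (SE 0.22 each; adjusted p = 1.98e-05, 0.00719 and 0.00459), at percentiles 59.0, 56.5 and 61.5. No treated library of either gene reached an untreated one of the same genotype. The NUP93-KO calls were lost for SC5D without the second triptolide library (−0.55) and for DHCR7 without the first untreated one (−0.67), and the EXOSC5-KO call for DHCR7 without its first untreated library (−0.66). Neither fall passed the threshold with libraries at the same total, and by median of ratios both genes had changes above 0 in all 3 genotypes.

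The brake and the accelerator of the pathway moved unequally. INSIG1, whose protein retains the SREBP precursor, was 503 and 615 in untreated NONT and 96.8 and 102 after the drug, 274 and 362 against 106 and 70.3 in NUP93-KO, and 477 and 395 against 97.3 and 79.9 in EXOSC5-KO. It fell past the threshold in every genotype, at −2.47, −1.85 and −2.29 on the log2 scale (SE 0.28 each; limma adjusted p = 4.9e-07, 2.33e-05 and 2.27e-06), and the treated levels of the 3 genotypes overlapped. SREBF2 was 4939.6 and 7291 against 3683 and 3054 in NONT, 4702 and 4931 against 4547 and 4693 in NUP93-KO, and 5675 and 5553 against 4437 and 4796 in EXOSC5-KO. It lost 0.84 ± 0.20 on the log2 scale in NONT (adjusted p = 0.000831), and the NUP93-KO change was −0.06 ± 0.20 (0.818) and the EXOSC5-KO change −0.28 ± 0.20 (0.207), but it rose past the threshold in all 3 genotypes when libraries were given the same total (0.50, 0.51 and 0.51) or median of ratios scaling (0.81, 0.84 and 0.80). In EXOSC5-KO its fall passed the threshold without either untreated NONT library and on the mitochondrial mRNA scale (−0.38), as it did on that scale in NUP93-KO (−0.36). Its place among genes did not depend on the scale in this way: it stood at percentiles 88.3, 90.0 and 89.0. INSIG1 stood at 28.2, 26.2 and 20.6.

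Over the 8 genes the median response in NONT was −1.71, that in NUP93-KO −0.86 and that in EXOSC5-KO −1.21, against the −1.62, −0.92 and −1.08 of all tested genes. The median of the 8 minus that of all genes was −0.09, 0.06 and −0.14. It moved to −0.41 in NONT without the second triptolide library and −0.25 without the second untreated one, and to −0.23 in EXOSC5-KO without its second triptolide library, and with no filter on low genes it was −0.40, −0.16 and −0.37. The summed value of the 8 genes was 0.166% and 0.172% of the summed gene values in untreated NONT and 0.140% and 0.141% after triptolide. In NUP93-KO 0.136% and 0.129% became 0.116% and 0.111%. In EXOSC5-KO 0.159% and 0.164% became 0.129% and 0.130%.

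To ask whether the knockouts kept more sterol mRNA, the response of each was compared with that of NONT. Against NUP93-KO, 1 of the 8 differences passed the threshold, that of FDFT1 at 3.42 ± 0.69 (limma adjusted p = 0.0412), where 0.760% of all genes had a higher response past it. The other 7 were above 0, from 0.34 ± 0.53 for IDI1 (adjusted p = 0.626) to 1.11 ± 0.29 for SQLE (0.0586), and the median over the 8 was 0.74, as over all genes (0.74). SREBF2 differed by 0.78 ± 0.28 (0.0747) and HMGCS1 by 0.80 ± 0.29 (0.0774). In EXOSC5-KO no difference passed (0 of 8, 0.333% of all genes in either direction). There SQLE differed by 0.76 ± 0.29 (adjusted p = 0.183) and IDI1 by −0.29 ± 0.53 (0.698), with a median of 0.52 against 0.57 over all genes. These counts turned on 1 library: without the first untreated NONT library 6 of 8 passed in NUP93-KO and 4 of 8 in EXOSC5-KO, and without the second 0 passed in either. Over all genes 51.0% and 38.2% were then higher without the first library, so those counts were near the background, and 0 were higher without the second. The FDFT1 difference did not pass on any other scale (2.66 to 2.78), nor without the second untreated NONT library, either untreated NUP93-KO library or the second treated NUP93-KO library, and over the 12 omissions it was 2.48 to 4.36. Both comparisons share the NONT libraries. Treated FDFT1 values overlapped between NUP93-KO (32.6 and 122) and NONT (27.6 and 37.9), while the untreated ones did not (46.8 and 29.5 against 227 and 196). The same untreated NUP93-KO libraries enter the comparisons without drug below.

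Without drug, 7 of the 8 sterol genes were lower in both NUP93-KO libraries than in both NONT libraries, where 12.8% of all genes were. IDI1 was the exception and lay above both (7.93% of all genes). Some gaps were small: the nearest NUP93-KO and NONT libraries were 4931 and 4939.6 for SREBF2, and 3213 and 3295 for DHCR7. The 8 genes were chosen with earlier results of these data known, so their shares and percentiles among all genes are descriptions only. None of the 8 differences passed the threshold over all genes in limma (0 of 8, against 0.0217% of all genes). FDFT1 differed most, at −2.47 ± 0.49 (adjusted p = 0.12), followed by INSIG1 at −0.82 ± 0.28 (0.824), SQLE at −0.55 ± 0.21 (0.964) and HMGCS1 at −0.50 ± 0.20 (adjusted p = 1). DHCR7 was at −0.46 ± 0.22, SC5D at −0.45 ± 0.22 and SREBF2 at −0.32 ± 0.20, while IDI1 was at 0.28 ± 0.38. The median of the 8 was −0.48, against −0.09 over all genes. The 7 lower genes stood between percentile 0.174 (FDFT1) and 17.8 (SREBF2) of all tested genes, a position that a common shift of all genes does not change. The count of calls was 1 of 8 with libraries at the same total (HMGCS1, −0.39), where 0.355% of all genes were lower and 0.615% higher. By median of ratios it was also 1 of 8 (HMGCS1, −0.43), with 0.427% of all genes lower and 0.485% higher. With a mean of at least 50 as the filter it was 1 of 8 (FDFT1), with 0.0343% of all genes lower and 0.0343% higher.

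The sterol genes lay nearer to NONT in untreated EXOSC5-KO cells, where 6 of the 8 differences were below 0 (40.5% of all genes). HMGCS1, FDFT1 and SQLE were within the NONT values or overlapped them, and across the 8 genes the differences ran from −0.36 ± 0.28 for INSIG1 (limma adjusted p = 0.879) to 0.27 ± 0.38 for IDI1 (0.983). No difference passed the threshold (0 of 8, against 0.521% of all genes). INSIG1 alone lay below both NONT libraries (9.20% of all genes) and IDI1 alone above both (19.2%), and the median was −0.07 against 0.07 over all genes.

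**Figure D3:**
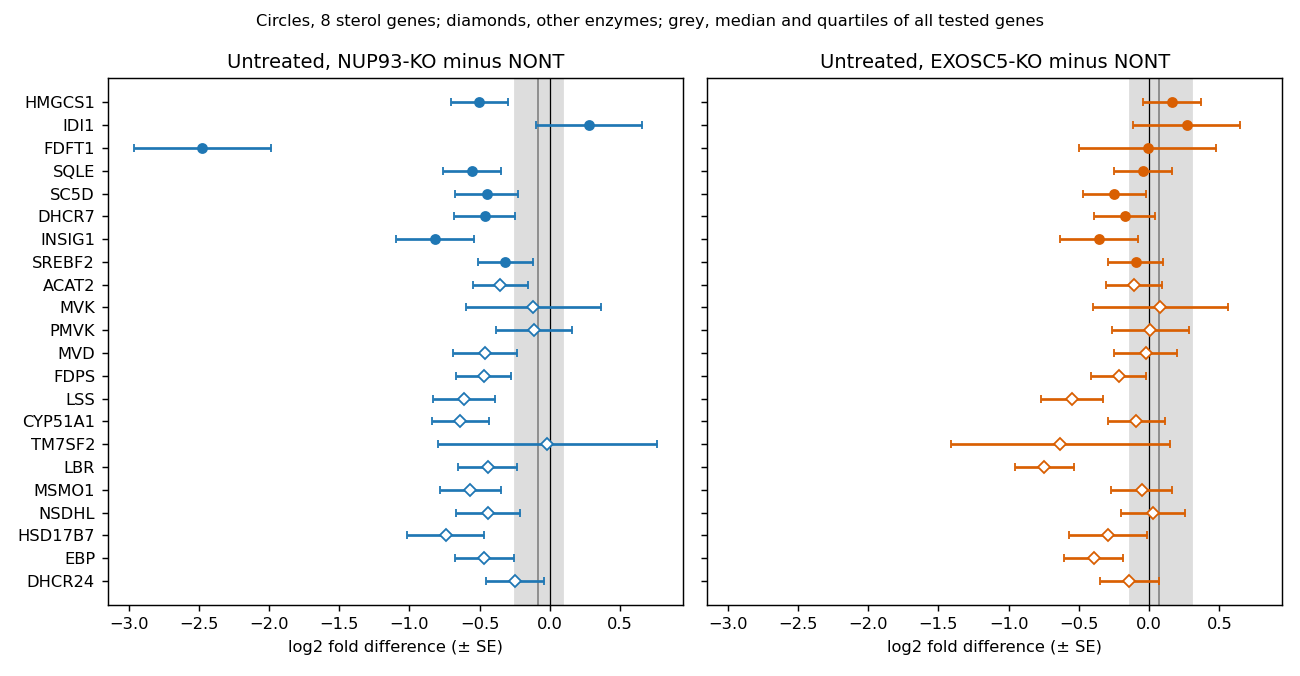
Log2 difference from NONT without drug (± SE) of the 8 sterol genes (circles) and 14 other enzymes of the pathway (diamonds) in NUP93-KO (left) and EXOSC5-KO (right). The grey band spans the quartiles of all tested genes, and in NUP93-KO 7 of 8 sterol genes lie to the left of it. No difference passed the threshold.

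A direct comparison of the untreated knockouts was added after the values were seen. In it 7 of the 8 genes were higher in both EXOSC5-KO libraries than in both NUP93-KO libraries, where 39.0% of all genes were. One passed the threshold (0.268% of all genes higher), FDFT1, at 2.46 ± 0.49 (limma adjusted p = 0.0405), and HMGCS1 was at 0.66 ± 0.20 (0.309) and SQLE at 0.51 ± 0.21 (0.503). IDI1 was at −0.01 ± 0.38. The median was 0.38, against 0.15 over all genes. The HMGCS1 difference passed the threshold with libraries at the same total (0.52) and by median of ratios (0.49). On those scales 1.52% and 1.34% of all genes were higher past it. The FDFT1 call was lost under each of the other 3 scales, and without any 1 of the 6 untreated libraries (2.14 to 2.79).

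The rest of the pathway was examined through 5 lists of related genes. Of 14 other enzymes between acetyl-CoA and cholesterol, 14, 10 and 11 fell past the threshold in the same order of genotypes, with medians of −1.51, −0.86 and −0.91. Over all genes 90.0%, 55.1% and 64.3% fell, with medians of −1.62, −0.92 and −1.08, so these enzymes were close to the background. MVK, mevalonate kinase, was the lowest of them in NONT at −3.36 ± 0.48 (353 and 646 to 52.1 and 39.9; limma adjusted p = 8.26e-06), and ACAT2, the thiolase of the first step, was the highest at −0.95 ± 0.20 (1665 and 2391 to 1142 and 933; adjusted p = 0.000319). Without drug, all 14 were below 0 in NUP93-KO (63.8% of all genes) and 9 of them lay below both NONT libraries (12.8% of all genes), with a median of −0.45, and none passed the threshold. In EXOSC5-KO 11 of the 14 were below 0 (40.5% of all genes) and 4 lay below both NONT libraries (9.20% of all genes). Their median was −0.13, against 0.07 over all genes.

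Of 11 genes of SREBP processing and sterol sensing, 11, 5 and 6 fell (90.0%, 55.1% and 64.3% of all genes), with medians of −1.10, −0.59 and −0.62. The ends of this list in NONT were RNF139, a ubiquitin ligase of the endoplasmic reticulum, at −5.43 ± 0.34 (443 and 607 to 11.1 and 11.1; limma adjusted p = 7.15e-10), and MBTPS1, the Golgi protease that makes the first cut in SREBPs, at −0.78 ± 0.20 (adjusted p = 0.00169). MBTPS1 was at 0.18 ± 0.20 in NUP93-KO (0.467). Of 9 fatty acid synthesis genes, 8, 2 and 5 fell, with medians of −0.98, −0.42 and −0.52. In both knockouts the shares of these lists that fell were below those of all genes, most so for fatty acid synthesis in NUP93-KO, and their medians were nearer to 0 in all 3 genotypes. Its ends were both elongases, ELOVL5 at −1.54 ± 0.20 (adjusted p = 2.14e-06) and ELOVL6 at −0.58 ± 0.43 (0.207).

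Of 11 genes of cholesterol transport, storage and LXR signalling, 9, 8 and 9 fell (90.0%, 55.1% and 64.3% of all genes), with medians of −1.70, −1.27 and −1.32. The 9 in EXOSC5-KO include VLDLR, which passed the filter on low values only through the untreated EXOSC5-KO libraries. MYLIP, a ubiquitin ligase of lipoprotein receptors induced by LXR, went from 111 and 146 to 1.93 and 1.57 in NONT, a change of −5.55 ± 0.51 (limma adjusted p = 5.25e-08). VLDLR, a lipoprotein receptor, was at 1.06 and 1.96 without drug and at 35.4 and 0 after it in NONT, and at 43.8 and 23.1 without drug and listed at 0 in both treated libraries in EXOSC5-KO, so no change is read from it. Of 8 isoprenoid branch enzymes, 8, 7 and 7 fell, with medians of −1.76, −1.25 and −1.22 against the −1.62, −0.92 and −1.08 of all genes, between PGGT1B, a subunit of a protein prenyltransferase, at −2.86 ± 0.35 (adjusted p = 1.44e-06) and COQ2, of ubiquinone synthesis, at −1.24 ± 0.29 (0.000797). No gene of the 5 lists passed the threshold in an untreated knockout against NONT or in a difference of response. In untreated NUP93-KO the medians were −0.12 for SREBP processing, −0.30 for fatty acid synthesis, 0.05 for transport and −0.25 for the isoprenoid branch.

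**Figure D4:**
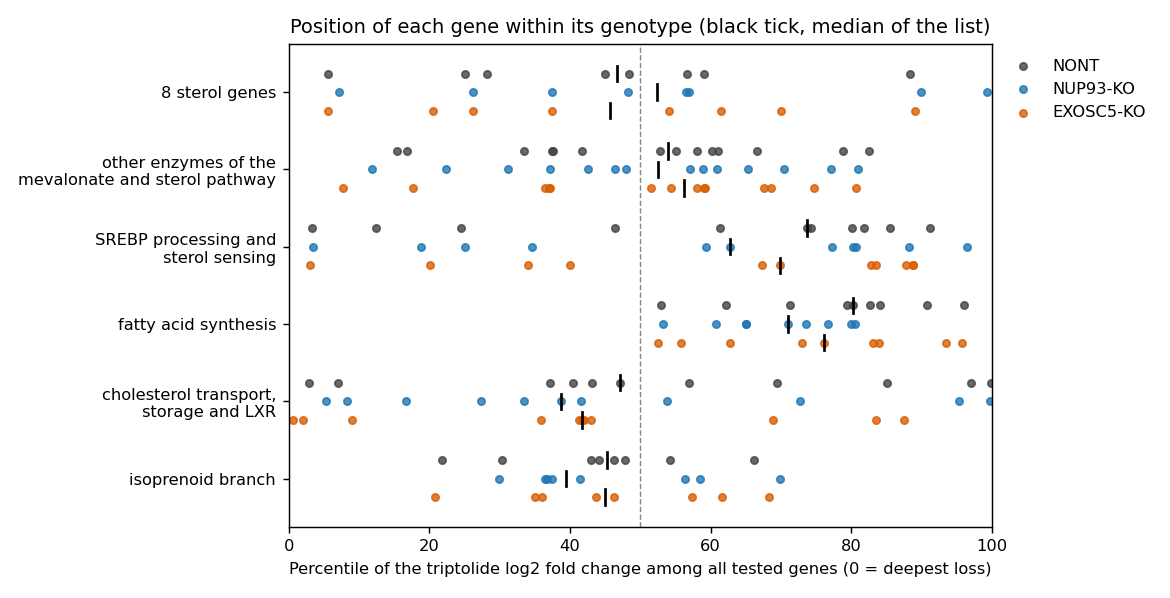
Percentile of each gene's log2 fold change after triptolide among all tested genes of its genotype (0, deepest loss), for the 8 sterol genes and the 5 related lists; ticks are list medians. SQLE is the leftmost of the 8 sterol genes in each genotype, and the fatty acid synthesis genes lie to the right of the 50th percentile.

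The genes whose pattern was most like that of each sterol gene were found by Pearson r over the 12 libraries, after the library median was taken from log2 values. The 12 points share treatment, so a high r mostly says that 2 genes stand alike towards the median gene after the drug. SREBF2 was most like TMEM43 (r = 0.998), CKAP4 (0.998) and ARF4 (0.998), and SQLE most like ABL1 (0.996), KLHL9 (0.994) and MB21D2 (0.994). DHCR7 was most like MXRA8 (0.979), FSCN1 (0.979) and TENM2 (0.976), SC5D like PPIL1 (0.963), an ID without a symbol (0.960) and ADIPOR2 (0.960), and HMGCS1 like TIA1 (0.937), TXNRD1 (0.917) and ABHD4 (0.914). Among the 3 genes most like INSIG1 were RAD18 (0.893) and POMZP3 (0.891). The lowest values were those of the low-count genes, FDFT1 with GSK3B (0.830), STXBP4 (0.830) and LMTK3 (0.821), and IDI1 with NEURL2 (0.794), an ID without a symbol (0.786) and IFIH1 (0.778). None of these nearest 3 was another sterol gene or in a related list, and the first such genes came further down, STARD4 at rank 6 for HMGCS1 (0.892) and FADS2 at rank 19 for DHCR7 (0.966). For the mean of the 8 genes the nearest were HSPB7 (0.867), CRYBG2 (0.840), PCDHGA2 (0.837), GRIK2 (0.820) and METAP1D (0.819), followed by the pathway enzymes CYP51A1 (0.803) and NSDHL (0.799) at ranks 6 and 7.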

How the data were processed

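The authors pseudoaligned paired-end reads to the human transcriptome (GRCh38) with kallisto 0.46.1, summed transcripts to genes and divided by DESeq2 size factors estimated on the 92 ERCC spike-ins, and the deposited values are this spike-in-normalised signal per gene, not counts. Between 20.6% and 26.7% of low values were whole multiples of 1 read (within 0.02 reads), so no count model was used. An error in cell number or spike-in volume shifts all genes of a library together. The members and lists were chosen with earlier results of these data known.

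Of 22379 gene IDs, 19584 matched the GENCODE 44 annotation. Values were analysed as log2(value + 1), which understates changes of low genes, for genes with an untreated mean of at least 10. The 6 group means were fitted to all 12 libraries in limma 3.58.1 (R 4.3.3; eBayes with trend, two-sided, Benjamini-Hochberg over 13811 genes, threshold 0.05). The labels do not say that replicates were separate cultures, so p-values measure the spread between these libraries, which may be technical. Percent remaining is the ratio of group means. All 8 sterol genes are named, and from each related list the lowest and highest change in NONT. Replicate numbers did not pair libraries: correlations of deviations were −0.05 to 0.04 over 15 pairs of groups. Alternatives were other pseudocounts, filters and scales, no trend, a replicate block and leaving out each library. Figures used Python 3.11.15 and matplotlib 3.10.9. One gene whose pattern was like that of INSIG1 is not reported here.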

Additional observations from a re-analysis of the deposited data

Results flagged for a closer look

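The response of FDFT1, squalene synthase, to triptolide differed between NUP93-KO and NONT by 3.42 ± 0.69 (SE) on the log2 scale (limma adjusted p = 0.0412), and this test of the difference itself brought it out. FDFT1 went from 227 and 196 to 27.6 and 37.9 in NONT, and from 46.8 and 29.5 to 32.6 and 122 in NUP93-KO. The treated values of these genotypes overlapped and the untreated ones did not. The lowest of these values rested on about 23.6 reads. Over the alternatives its adjusted p ran from 0.00215 to 0.653. Whether reads of FDFT1 were divided with a copy under another ID was not tested, so these values are uncertain.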

How the results depend on the processing

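The pseudocounts and the replicate block changed no call of the 8 sterol genes among the 7 comparisons planned, and a pseudocount of 0.5 lost 1 call in the added one. The scale mattered most. Calls of lower sterol genes in NONT and the NUP93 and EXOSC5 knockouts were 3, 3 and 4 with libraries at the same total. Over all genes 38.2%, 39.3% and 36.8% were then lower. By median of ratios the calls were 2, 2 and 3, against 30.3%, 29.7% and 28.7% of all genes. Both sets of counts were thus near the background. Median of ratios turned the responses of SC5D (0.20, 0.16 and 0.12), DHCR7 (0.26, 0.15 and 0.29) and SREBF2 (0.81, 0.84 and 0.80) above 0 in the 3 genotypes, and that of FDFT1 in EXOSC5-KO (0.45). The same total turned SREBF2 (0.50, 0.51 and 0.51), and in EXOSC5-KO also FDFT1 (0.17) and DHCR7 (0.0045). These scales remove the drop of the typical gene by construction.

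In the differences of response, which were not called for these genes, the same total, median of ratios and mitochondrial mRNA scales gave IDI1 −0.42, −0.39 and −0.31, DHCR7 −0.13, −0.11 and −0.0245, and INSIG1 −0.15, −0.13 and −0.0394 for NUP93-KO, and HMGCS1 −0.25, −0.27 and −0.16 and INSIG1 −0.36, −0.38 and −0.26 for EXOSC5-KO. The first and second of these scales gave SC5D −0.0615 and −0.0395 for NUP93-KO and −0.0575 and −0.0833 for EXOSC5-KO, and median of ratios gave SREBF2 −0.0153 for EXOSC5-KO. The mitochondrial mRNA scale turned the untreated EXOSC5-KO differences from NONT of HMGCS1 (−0.21) and IDI1 (−0.11), and from NUP93-KO of SC5D (−0.24), DHCR7 (−0.15) and SREBF2 (−0.22).

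For untreated NUP93-KO against NONT the count was 1 with the filter at 50, the same total or median of ratios. In that order 0.0343%, 0.355% and 0.427% of all genes were then lower, and 0.0343%, 0.615% and 0.485% higher. For untreated EXOSC5-KO against NONT the count was 1 on the mitochondrial scale (DHCR7, −0.55), where 5.21% of all genes were lower and 0.550% higher. For the NUP93-KO difference of response it was 0 with no filter, no trend or any other scale, and 2 with the filter at 50, where 9.01% of all genes were higher in place of 0.760%. For EXOSC5-KO against NUP93-KO it was 0 with a pseudocount of 0.5, no filter, no trend or the mitochondrial scale. With no filter, which adds low genes to the background, the sterol median relative to all genes was −0.40, −0.16 and −0.37, in the same order. The cause of the other changes was not tested.

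Leaving out each library in turn gave 8 to 8, 5 to 6 and 5 to 7 lower sterol genes in that order, 0 to 1 calls in untreated NUP93-KO, 0 to 0 in untreated EXOSC5-KO, 0 to 6 and 0 to 4 in the differences for NUP93-KO and EXOSC5-KO, and 0 to 1 between the knockouts. In each genotype the share of all genes that fell past the threshold also moved with the library left out. The ranges of counts therefore describe the sterol genes alone and are not a comparison with the background. The relative medians ran from −0.41 to 0.0227, −0.0523 to 0.12 and −0.23 to −0.0659. The sign of uncalled values turned within −0.18 to 1.69 (FDFT1 response, NUP93-KO), within −0.17 to 0.49 (HMGCS1), −0.18 to 0.16 (FDFT1), −0.33 to 0.25 (SQLE), −0.52 to 0.17 (DHCR7) and −0.38 to 0.18 (SREBF2) in untreated EXOSC5-KO against NONT, within −0.14 to 0.82 (IDI1, NUP93-KO difference), −0.0289 to 0.63 (HMGCS1) and −0.77 to 0.19 (IDI1) in the EXOSC5-KO difference, and within −0.12 to 0.10 (IDI1) between the knockouts.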
